A study of Rattus norvegicus with 6 samples.

Results

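Cytosolic ribosomal protein genes were examined in rat liver. They were the genes whose RefSeq symbol begins with Rpl or Rps, has an optional p and a number, and ends there or with a or x. Of 76 rat symbols of this form, 72 were represented on the array (28 of the small and 44 of the large subunit, among 27642 genes measured), and the other 4 were not analysed here. Where a gene had several probes, the brightest on average stood for it. Liver RNA came from 6 male Sprague-Dawley rats (Crl:CD(SD), an outbred stock), bought at an age of 5 weeks and kept on a basal diet, with 1 animal per array. The control group of 3 rats received corn oil, and the treated group of 3 rats received 400 mg per kg daily of TCEP, which is Tris(2-Chloroethyl) Phosphate, an organophosphate ester used as a flame retardant. Corn oil is named as a treatment of the control rats alone, and the vehicle of TCEP is not given in the sources used here. The length of dosing is uncertain, since the treatment protocol gives 9 weeks and the series design gives 28 days.

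Ribosomal proteins and ribosomal RNA make up the small subunit, which reads the messenger RNA, and the large subunit, which joins amino acids. Most of the proteins are needed in equal numbers, and ribosomal protein genes are among the most strongly transcribed in every cell. In liver they supply the ribosomes that make albumin and the other plasma proteins. Their messenger RNAs begin with a terminal oligopyrimidine (TOP) tract, a C followed by a run of C and T, through which mTOR signalling and the protein Larp1 control their translation and stability.

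The ribosomal protein genes were slightly and jointly higher in the TCEP livers, and no single gene passed the test. The mean signal was higher with TCEP for 70 of the 72 genes, against 50.9% of all genes, and was lower for Rpl19 and Rps27. The median log2 difference was 0.18, which is a signal 13.6% higher, and the middle part of the genes (interquartile range) lay between 0.13 and 0.23. The median of all genes was 0.0048, with an interquartile range of -0.14 to 0.14. By limma with Benjamini-Hochberg adjustment over all genes, 0 of the 72 passed 0.05, as did 0% of all genes. The smallest adjusted p among them by limma was 0.393, for Rpl32, and the smallest over all genes was 0.291. At an unadjusted limma p under 0.05, 19 of the 72 were higher and 0 were lower, against 5.01% and 4.19% of all genes. Among the 2784 other genes with mean signals in the range of the 72, 13.1% were higher at that threshold. The groups were free of overlap, with every TCEP animal above every control, for 58 of the 72 genes (10.3% of all genes) and with every TCEP animal below for 0 (7.06% of all genes), and they overlapped for the other 14. In bulk tissue a difference in RNA per cell and a difference in the mix of cells cannot be told apart.

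The size of the difference depended on how arrays were scaled. The values are log2 signals relative to the 75th percentile of each array. With quantile normalization, which gives all arrays 1 distribution, the median difference was 0.11, with 60 genes higher, 12 lower and 28 free of overlap. The share of all genes free of overlap with that scaling is not given here, so the 28 cannot be set against it. With each array centred on its median it was 0.24, with 71 higher and 1 lower. All genes moved up with that scaling too, to a median of 0.064 with 62.1% higher. With quantile normalization 51.6% of all genes were higher.

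The shift was present on each TCEP array. Relative to each gene's corn oil mean, the median of the 72 genes was -0.0064, -0.017 and 0.030 on the corn oil arrays of replicates 1 to 3. It was 0.15, 0.17 and 0.25 on the TCEP arrays of replicates 1 to 3. The lowest TCEP array lay 0.12 above the highest corn oil array, and the group means were 0.0024 ± 0.025 (SD, n = 3) for corn oil and 0.19 ± 0.053 (SD, n = 3) for TCEP. On the TCEP arrays 69, 68 and 69 of the genes were above their corn oil mean, and 66 were above it on all 3. On the corn oil arrays 29, 24 and 54 were. The genes also spread further apart on the TCEP arrays, with interquartile ranges of 0.080, 0.094 and 0.13 against 0.063, 0.053 and 0.056. The corn oil mean was itself made from the corn oil arrays, which draws their values together.

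**Figure D1:**
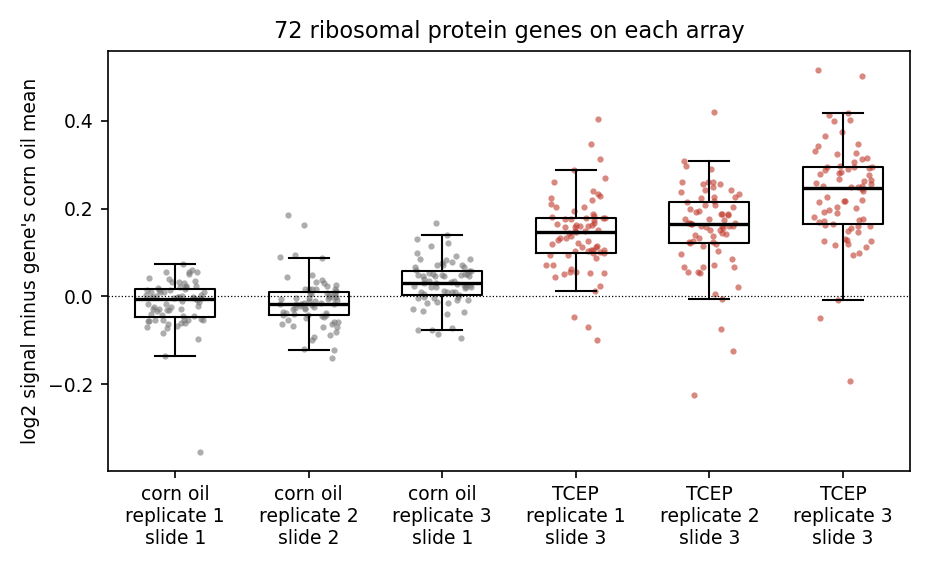
Log2 signal of each of the 72 ribosomal protein genes minus that gene's corn oil mean (vertical axis, log2 units) on each of the 6 arrays; points are genes, boxes give the median and interquartile range, and whiskers reach the farthest gene within 1.5 interquartile ranges. The TCEP medians lie at 0.15 to 0.25 and the corn oil medians at -0.017 to 0.030.

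All 3 arrays of TCEP livers lay together on 1 slide without a control array, so slide and treatment cannot be told apart. Corn oil replicates 1 and 3 lay on another slide, and corn oil replicate 2 on another again, scanned on a later day. Each gene's value on that array was compared with its mean on the other corn oil arrays, and the median difference over the 72 genes was -0.025. Between 57.2% and 64.4% of probes per array were well above background. All 72 genes were well above background on all 6 arrays and none of their spots was saturated, so no gene entered through 1 group alone. All 10 hepatocyte markers were measured, with a summed signal (relative to the 75th percentile, linear) of 7124 to 7549 with corn oil and 6487 to 7262 with TCEP. Of these markers 2 had a higher mean and 8 a lower one, with a median log2 difference of -0.12. Cholangiocyte markers, of the bile duct lining, were dim, with summed signals of 1.22 to 1.55 and 1.62 to 2.46. Of the 5 measured, 4 were higher, 2 of them at an unadjusted limma p under 0.05 (5.01% of all genes), and Sox9 was not analysed here. The part of either cell type in the ribosomal protein values was not tested.

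Spread between animals was small for these genes. The median SD within groups was 0.058, against 0.18 for all genes, and 0.044 once each array's own median of the 72 was taken out. The set of all genes includes much dimmer ones, and the spread of other genes of like signal is not given here. The standard error of the difference from limma had a median of 0.089 (0.081 to 0.20 across the 72), against 0.14 for all genes. The differences of the 72 genes had an SD of 0.085 among themselves. The standard error from limma draws on the spread of all genes as well as on that of the gene itself.

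**Figure D2:**
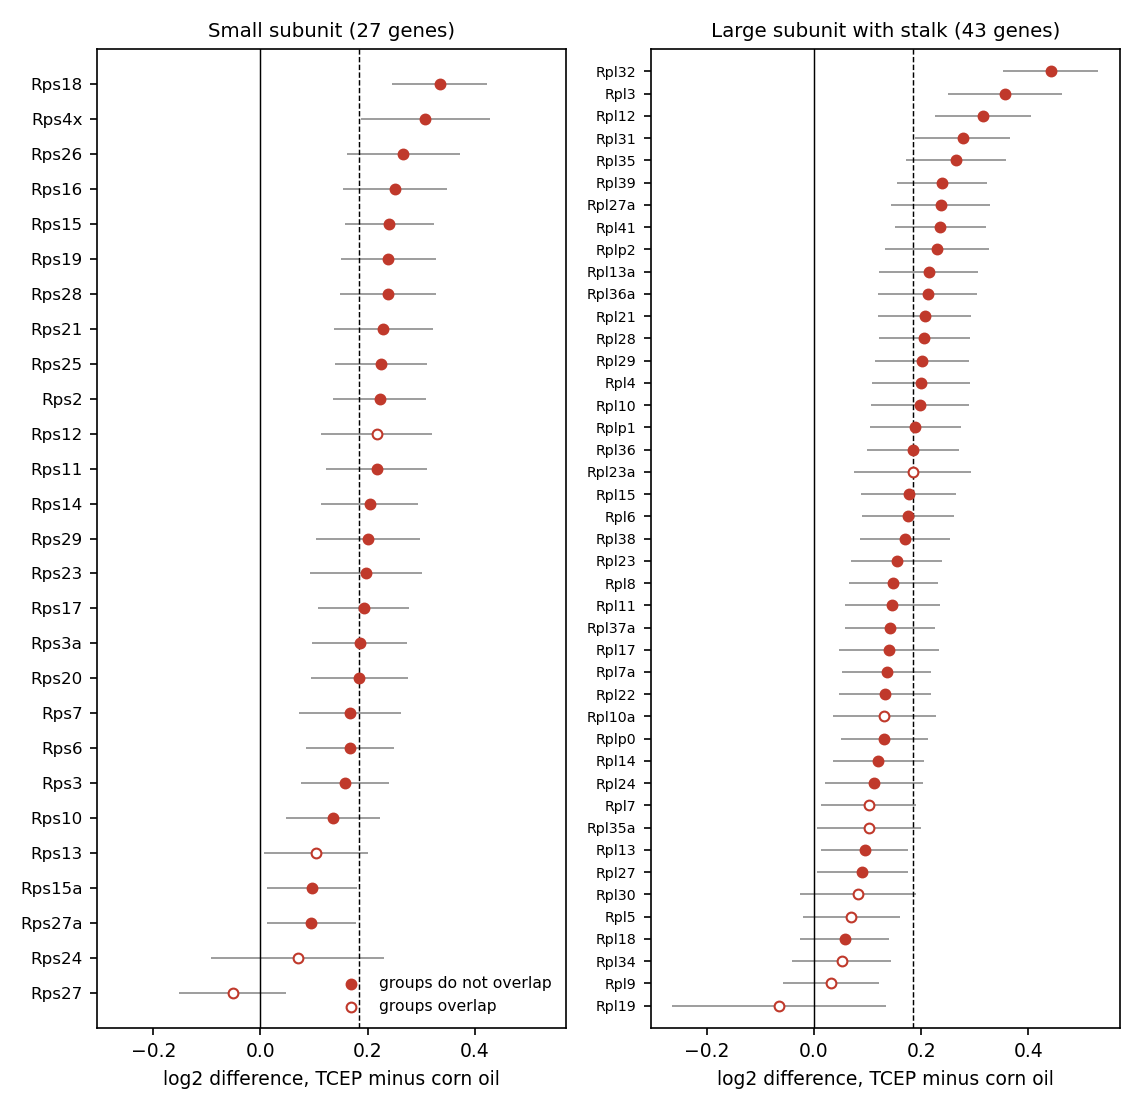
Log2 difference, TCEP minus corn oil (horizontal axis), of 27 small subunit and 43 large subunit genes; bars are 1 standard error from limma, filled points are genes whose groups do not overlap, the solid line marks 0 and the dashed line the median of all 72, 0.18. Values run from -0.066 for Rpl19 to 0.44 for Rpl32, and 2 genes lie below 0.

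Of the 28 small subunit genes, 27 had a higher mean, and the median log2 difference was 0.20. Among them 24 lay wholly above the controls (10.3% of all genes). At an unadjusted limma p under 0.05, 11 were higher (5.01% of all genes). Rps18, a protein of the small subunit head, had log2 signals of 7.29, 7.35 and 7.35 with corn oil and 7.62, 7.63 and 7.75 with TCEP. Its groups were well apart, and the difference was 0.33 (SE 0.089, limma p 0.00857, adjusted p 0.472).

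Rps6, the substrate of the S6 kinases that act below mTOR, read 8.13, 8.12 and 8.11 with corn oil and 8.26, 8.30 and 8.32 with TCEP. The groups did not overlap, and the difference was 0.17 (SE 0.082, limma p 0.0845, adjusted p 0.583). Rps19, the gene most often mutated in Diamond-Blackfan anaemia, read 6.46, 6.52 and 6.54 with corn oil. With TCEP it read 6.67, 6.76 and 6.81, without overlap, and the difference of 0.24 had an adjusted p of 0.530 by limma. Rps27a, which is made as a fusion to ubiquitin, differed by only 0.095 (adjusted p 0.743 by limma), and by -0.011 with quantile normalization. Rps4x, the X-linked form of Rps4, had 4.88, 4.86 and 4.94 with corn oil and 5.04, 5.15 and 5.41 with TCEP. Its TCEP values were more widely spread than those of most other members, with an SD of 0.19, and its difference was 0.31 (adjusted p 0.533 by limma).

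Further small subunit genes with an unadjusted limma p under 0.05 were Rps2, Rps15, Rps16, Rps21, Rps25, Rps26 and Rps28, with log2 differences from 0.22 for Rps2 to 0.27 for Rps26. On the TCEP arrays the median of the small subunit genes above their corn oil means was 0.16, 0.18 and 0.28 in replicates 1 to 3. The large subunit genes had 0.13, 0.15 and 0.22, so that on each TCEP array the small subunit median was the higher one. The control arrays had -0.013, -0.0040 and 0.035 for the small subunit and -0.0033, -0.021 and 0.030 for the large.

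Rps24 and Rps27 were the least certain of the small subunit genes. Rps24, which takes part in maturation of the small subunit RNA, had 6.52, 6.43 and 6.61 with corn oil and 6.45, 6.40 and 6.92 with TCEP. A single TCEP animal, replicate 3, was high, and without it the difference of 0.069 became -0.097. With quantile normalization it was -0.031. Rps27, a zinc finger protein of the small subunit, had 7.45, 7.38 and 7.61 with corn oil and 7.38, 7.48 and 7.43 with TCEP. These overlap, and the difference of -0.052 (adjusted p 0.895 by limma) was 0.013 on the same probe without corn oil replicate 3. With the brightest probe chosen anew from the remaining arrays, another probe stood for Rps27 there and the difference was 0.10. Its other probes were higher with TCEP, the highest by 0.095.

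Of the 44 large subunit genes, 43 had a higher mean, and the median log2 difference was 0.16. Among them 34 lay wholly above the controls (10.3% of all genes). At an unadjusted limma p under 0.05, 8 were higher (5.01% of all genes). The difference between the subunits' medians was not tested. Rpl32 had the highest difference of the 72. Its log2 signals were 7.02, 7.04 and 7.14 with corn oil and 7.47, 7.49 and 7.57 with TCEP, and the difference was 0.44 (SE 0.089, limma p 0.00226), a signal 35.9% higher. The other 3 probes of Rpl32 gave smaller differences, the lowest 0.17, so its lead rested on 1 probe.

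Rpl12, which sits at the base of the stalk, read 6.63, 6.67 and 6.75 with corn oil and 6.997, 6.94 and 7.06 with TCEP. The groups were apart by more than either group's range, and the difference was 0.32 (limma p 0.0118, adjusted p 0.482). Rpl3, a protein close to the site where peptide bonds form, read 6.12, 6.36 and 6.10 with corn oil and 6.54, 6.50 and 6.61 with TCEP. Corn oil replicate 2 was the high control, still below every TCEP value, and the difference was 0.36 (limma p 0.0147, adjusted p 0.491). Rpl31, at the rim of the tunnel through which the new chain leaves, read 7.31, 7.26 and 7.39 with corn oil. With TCEP it read 7.58, 7.56 and 7.65, above all controls, and its 5 probes gave 0.20 to 0.29. Of the 6 measured genes of this rim, 5 were higher, with a median of 0.16.

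The stalk proteins Rplp0, Rplp1 and Rplp2, which recruit and activate the elongation factors, all had a higher mean and no overlap. Rplp0 read 8.83, 8.77 and 8.79 with corn oil and 8.94, 8.93 and 8.92 with TCEP. The TCEP animals were almost equal (SD 0.011), and the difference was 0.13 (SE 0.082, limma p 0.158, adjusted p 0.651). Rplp1 differed by 0.19 and Rplp2 by 0.23, with adjusted p of 0.560 and 0.545 by limma. Rpl10, the protein whose joining completes the large subunit, read 8.26, 8.27 and 8.34 with corn oil and 8.39, 8.54 and 8.54 with TCEP. TCEP replicate 1 lay close to the controls, without overlap, and the difference was 0.20 (adjusted p 0.566 by limma).

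Rpl5 and Rpl11 join the smallest ribosomal RNA and, when ribosome assembly fails, bind Mdm2 and so stabilise p53. Both differed by less than the median of the ribosomal protein genes, 0.18. Rpl11 lay within the interquartile range of these genes (0.13 to 0.23) and Rpl5 below it. Rpl11 read 7.15, 7.13 and 7.21 with corn oil and 7.30, 7.25 and 7.38 with TCEP, without overlap, and differed by 0.15 (adjusted p 0.645 by limma). Rpl5 read 5.88, 5.94 and 5.98 with corn oil and 5.99, 5.94 and 6.09 with TCEP. Its groups overlapped, the difference was 0.070 (adjusted p 0.831 by limma), and with quantile normalization it was -0.031. Among 18 measured genes of the Diamond-Blackfan anaemia list, which includes Rpl5, Rpl11 and Rps19, 17 were higher, with a median of 0.16. Every TCEP animal was above every control for 14 of them (10.3% of all genes).

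Further large subunit genes with an unadjusted limma p under 0.05 were Rpl27a, Rpl35, Rpl39 and Rpl41, with log2 differences from 0.24 for Rpl41 to 0.26 for Rpl35. At the low end were Rpl9, at 0.032, Rpl34, at 0.052, and Rpl18, at 0.057, and of these Rpl18 alone was free of overlap. With quantile normalization these 3 were below 0, at -0.065, -0.013 and -0.043. Besides Rpl5, Rpl9, Rpl19 and Rpl34, large subunit genes with overlapping groups included Rpl7, Rpl10a, Rpl23a, Rpl30 and Rpl35a. In the small subunit these were Rps12, Rps13, Rps24 and Rps27. In Rps12 the lowest TCEP value lay -0.0014 log2 units from the highest control, a near miss.

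**Figure D3:**
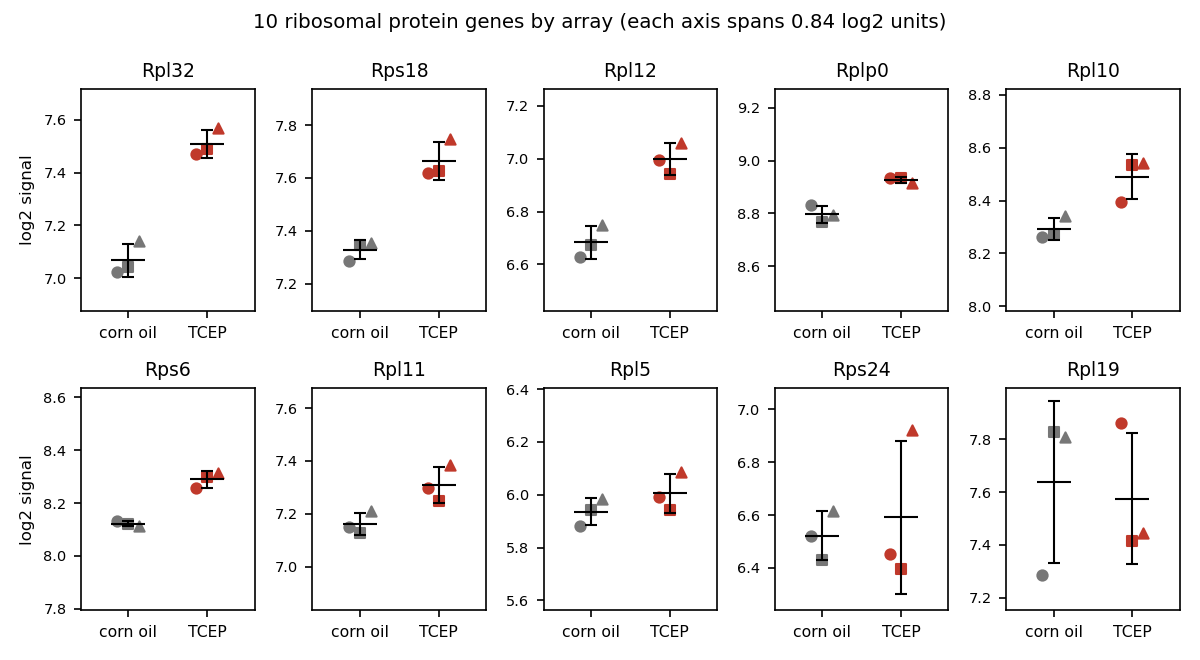
Log2 signal relative to the array's 75th percentile (vertical axis; each panel has its own range of equal height) of 10 named ribosomal protein genes on the corn oil (grey) and TCEP (red) arrays. Circles, squares and triangles are replicates 1, 2 and 3, which were not used to pair animals across groups. Black marks give the mean ± SD (n = 3). Rpl32, Rps18 and Rpl12 show separate groups, and Rps24 and Rpl19 show animals far from the rest of their group.

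Rpl19, also of the exit tunnel rim, was, with Rps27, 1 of 2 genes whose probes gave opposite signs. On its brightest probe it read 7.29, 7.83 and 7.81 with corn oil and 7.86, 7.42 and 7.45 with TCEP. Corn oil replicate 1 and TCEP replicate 1 were each far from the other animals of their group. The difference of -0.066 (SE 0.20, adjusted p 0.937 by limma) ranged from -0.24 to 0.027 as each array was left out, and was above 0 without corn oil replicate 2, corn oil replicate 3 or TCEP replicate 2. Its other 3 probes were all higher, by up to 0.33, and the mean over its probes differed by 0.18.

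Other probes of the same genes gave a further reading on the same animals. The 72 genes had 218 probes, of which 217 passed the filter, 1 to 8 per gene. The 145 kept probes that were not their gene's brightest were all higher with TCEP, by 0.026 to 0.72, with a median of 0.20; of all kept probes on the array 51.1% were higher. Every TCEP animal was above every control for 113 of these 145 (10.05% of all kept probes). Probes of 1 gene differed from each other by a median of 0.081 over the 67 genes with several kept probes, and by up to 0.56, in Rpl36a. Ribosomal protein genes have many near-identical processed pseudogenes, and probe sequences were not used here, so signal shared between copies cannot be told apart.

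**Figure D4:**
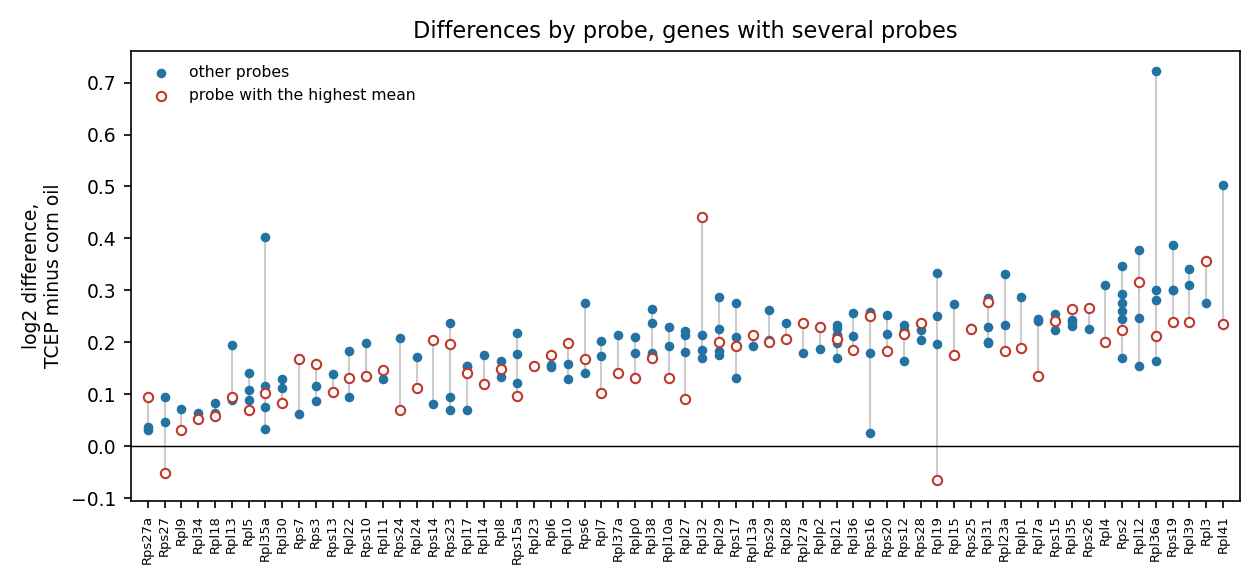
Log2 difference, TCEP minus corn oil (vertical axis), of each kept probe of 65 ribosomal protein genes with several probes, ordered by their median over probes. Open red circles are the probe that represents the gene, filled blue circles the others, and grey lines join the probes of a gene; 2 points, in Rpl19 and Rps27, lie below 0.

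Other genes of like signal were also higher, by less. The 72 genes had mean log2 signals of 4.24 to 9.34. Of the 2784 other genes in that range, 69.2% had a higher mean with TCEP and 29.2% had no overlap. Higher at an unadjusted limma p under 0.05 were 13.1% of them. The median difference of these other genes was 0.090. With quantile normalization their median was 0.0022, against 0.11 for the ribosomal protein genes. Among genes with a mean signal of 8 to 10, the 16 ribosomal protein genes had a median difference of 0.20 and the 229 others one of -0.013. Between 6 and 7 the medians were 0.18 for 21 ribosomal protein genes and 0.12 for 553 others. The part of signal level in the ribosomal protein shift was not tested.

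**Figure D5:**
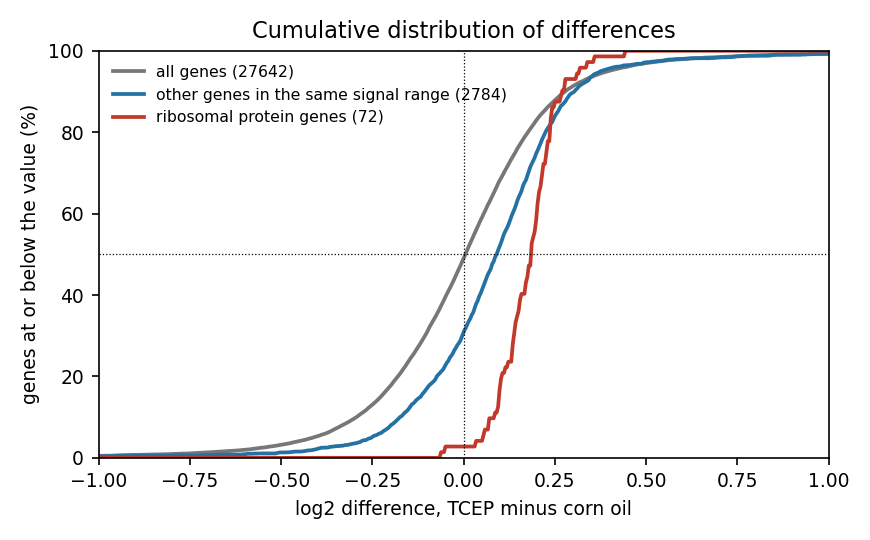
Share of genes (vertical axis, percent) at or below each log2 difference, TCEP minus corn oil (horizontal axis, drawn from -1 to 1), for all 27642 genes, the 2784 other genes in the signal range of the ribosomal protein genes, and the 72 ribosomal protein genes. The curves cross 50% at 0.0048, 0.090 and 0.18, and the ribosomal protein curve is the steepest of the 3.

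The transcript starts show the sequence feature for which the family is known. RefSeq promoter entries (assembly GRCr8) matched 58 of the 72 genes. A tract was scored, on the transcript's strand alone, where the annotated first base is C and at least the next 4 bases are C or T. It was found in 23 of the 58 genes (39.7%) and in 3.11% of all 27457 genes with an entry, with a gene counted if any of its entries held it. With a start allowed to move by up to 5 bases either way, it was found in 38 of 58 (65.5%) and in 19.0% of all genes. For mitochondrial ribosomal proteins, which serve another ribosome, the shares were 3.33% and 25.0% of 60 genes. Windows of 30 bases are shown for 8 genes described above, picked to set starts with and without a scored tract side by side. The annotated first base is base 11 of each window, and capitals mark the longest run of C and T.
Rps18 (chr20:4933735-4933764, plus strand): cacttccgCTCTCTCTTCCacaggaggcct
Rpl31 (chr9:49143101-49143130, plus strand): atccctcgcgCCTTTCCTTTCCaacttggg
Rpl10 (chrX:157205840-157205869, plus strand): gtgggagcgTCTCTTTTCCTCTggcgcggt
Rplp1 (chr8:71290853-71290882, minus strand): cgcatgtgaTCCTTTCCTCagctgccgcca
Rplp0 (chr12:46718371-46718400, minus strand): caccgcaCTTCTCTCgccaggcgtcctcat
Rpl19 (chr10:83519054-83519083, plus strand): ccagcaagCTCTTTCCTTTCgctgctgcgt
Rpl12 (chr3:36661930-36661959, plus strand): aacatccgTCTTTTCggctttcggttcgga
Rps6 (chr5:106420521-106420550, minus strand): CTCCTaggcggtcggctgtgtcaagatgaa

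The first 6 windows hold the scored tract at the annotated first base. Rpl12 and Rps6 do not hold it there, and their longest runs begin before the annotated start. The 23 genes with the tract at the annotated start had a median log2 difference of 0.17 (-0.066 to 0.33), and 21 of them were higher. The 35 genes without it had a median of 0.20 (0.057 to 0.36), and all 35 were higher. Rpl19 and Rps27, the genes with a lower mean, both hold the tract, but their other probes were all higher with TCEP. Whether the annotated starts are the ones used in these livers was not tested. With the start allowed to move, the medians were 0.19 for 38 genes and 0.18 for 20. The genes with a tract by this wider rule reached from -0.066 to 0.33 and those without from 0.057 to 0.36, and the difference was not tested. The 14 genes without an entry had a median of 0.18.

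Ribosomal proteins whose symbols lie outside the name pattern had like values. Of 6 measured, 5 were higher and 4 lay wholly above the controls (10.3% of all genes), with a median log2 difference of 0.21. Rack1, a scaffold on the small subunit, differed by 0.27 (adjusted p 0.512 by limma). Rpsa, a small subunit protein also known as a laminin receptor, differed by 0.22 (adjusted p 0.546 by limma). Rpl3l, the muscle paralog of Rpl3, was the member with a lower mean, at -0.059.

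The factors that work with the ribosome had smaller medians, a difference that was not tested. Many of them, and of the biogenesis and growth control genes described next, were dimmer than every cytosolic ribosomal protein gene. The part of signal level in these medians was not tested. Of 33 initiation factors, 22 had a higher mean, 6 lay wholly above and 2 wholly below the controls (10.3% and 7.06% of all genes), and the median log2 difference was 0.029. Eif6, which keeps the subunits apart until the large one is mature, differed by 0.28 and was the only one with an unadjusted limma p under 0.05 (0.0499; 5.01% of all genes were higher at that threshold). Eif2s1, a subunit of the factor that brings the initiator tRNA, differed by 0.20 (adjusted p 0.593 by limma). Eif3a, of the factor that holds the small subunit, differed by 0.17 on its brightest probe and by -0.068 as the mean over its probes. Of 9 elongation and termination factors, 6 were higher and the median was 0.041. Eef1a1, the tRNA carrier, whose messenger RNA also carries a TOP tract, was named after its values were seen. It read 8.09, 7.97 and 8.12 with corn oil and 8.00, 8.07 and 8.07 with TCEP, a difference of -0.013. Eef2, the translocase, differed by 0.17, Eef1g, part of the exchange factor of Eef1a, by 0.16, and Gspt1, a release factor, by 0.12, none with an unadjusted limma p under 0.05.

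Of 49 ribosome biogenesis factors, 32 had a higher and 17 a lower mean, and the median log2 difference was 0.048. At an unadjusted limma p under 0.05, 0 were called, against 5.01% of all genes higher and 4.19% lower. Ebna1bp2, of large subunit assembly, differed by 0.23, and Noc3l, of large subunit export, by 0.16. Emg1, an enzyme that modifies the small subunit RNA, differed by -0.22 and lay wholly below the controls (adjusted p 0.549 by limma). Of 19 genes of mTOR and Myc growth control, 13 were higher and the median was 0.068. Mtor, the kinase itself, read -1.62, -1.84 and -1.51 with corn oil and -1.26, -1.29 and -1.35 with TCEP. Its groups did not overlap and it differed by 0.36 (limma p 0.0188, adjusted p 0.509). Lamtor2, of the lysosomal platform on which mTOR is activated, differed by 0.18, and Sesn2, an inhibitor of that activation, by -0.41, both without an unadjusted limma p under 0.05. These genes were named by their p-values and do not stand for the list. The highest difference of the list was 0.71, for Ddit4, with overlapping groups. Activity of mTOR was not measured. Larp1 was not analysed here.

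Mitochondrial ribosomal proteins, which are encoded in the nucleus and translate the messages of the mitochondrial genome, had a median between those of these factors and of the cytosolic family. Of 66 measured, 60 had a higher mean, 20 lay wholly above and 1 wholly below the controls (10.3% and 7.06% of all genes), 2 were higher at an unadjusted limma p under 0.05 (5.01% of all genes), and the median log2 difference was 0.11. With quantile normalization 49 were higher and the median was 0.063. Mrpl44 differed by 0.30, Mrpl14 by 0.28 and Mrpl22 by 0.24, with adjusted p of 0.518, 0.540 and 0.537 by limma. Many mitochondrial ribosomal protein genes were dimmer than every cytosolic one. The difference between the families, and the part of signal level in it, was not tested.

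The count of ribosomal protein genes at an unadjusted limma p under 0.05 moved with single arrays. It was 19 with all arrays, against 5.01% of all genes. Without TCEP replicate 1, 2 or 3 it was 9, 7 and 5, against 3.58%, 2.96% and 2.95% of all genes. Without corn oil replicate 1, 2 or 3 it was 7, 7 and 16, against 4.48%, 4.07% and 5.84% of all genes. The count with a higher mean stayed between 69 and 71 in the same fits.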

How the data were processed

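Liver RNA was labelled with Cy3 and hybridised to 1-colour Agilent arrays, per the labels' protocols. The authors extracted signals with Agilent Feature Extraction 10.7.1.1, per the file headers. The deposited scanner files hold a background-subtracted processed intensity, median spot and background intensity, and flags per spot. The deposited value table holds a ratio, the processed signal over the array's 75th percentile, as its values show (within 0.0027 log2 units for signals over 100).

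From the scanner files, processed signals were put on a log2 scale and lowered by their array's 75th percentile over 61657 non-control probes. Left out were 1319 control spots and 64 outlier spots, none of them in ribosomal protein probes. A probe had to be well above background throughout 1 group or both (37043 were). Symbols came from RefSeq (GRCr8) through unversioned accessions, matched for 27460 probes; other probes kept the design's name. The probe with the highest mean stood for its gene. Groups were compared with limma 3.58.1 under R 4.3.3 (lmFit, eBayes, two-sided), and p-values were adjusted by Benjamini-Hochberg over 27642 genes; the fit was tested on simulated data. The number of arrays limits the precision.

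Members and lists were chosen with earlier results of these data known. Named were members past the threshold (0), the 6 with the smallest unadjusted p, 9 members by role, the 3 with the largest SD, those with probes of opposite sign, and up to 3 per related list by p; a few of these are not reported here, nor drawn in the figures. Same-numbered animals of the groups were not paired in the main fit. Alternatives were quantile normalization, median centring, normexp (offset 50, on median signals), the deposited table, other filters, the mean over probes, trend and robust eBayes, a random block for slide, a block for replicate number, keeping outlier spots, and omitting each array in turn.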

Additional observations from a re-analysis of the deposited data

How the results depend on the processing

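In each of the 17 alternatives 0 genes passed limma's adjusted threshold, and 0 ribosomal protein genes were lower at an unadjusted p under 0.05. The direction held in all of them for 60 of the 72 genes. The median log2 difference (0.18) was 0.11 with quantile normalization and 0.24 with median centring, where the median of all genes was 0.064. Its distance from the median of all genes (0.18) was 0.097 with quantile normalization and 0.26 when dim probes were kept. With dim probes kept, the median of all genes was -0.074. The count higher at an unadjusted limma p under 0.05 was 19, against 5.01% of all genes. In brackets is the share of all genes in the same alternative. The count was 4 with quantile normalization (4.58%), 35 with median centring (7.81%) and 43 with normexp (6.71%). It was 5 when dim probes were kept (2.24%) and 43 with trend and robust eBayes (6.21%). As each array was left out it was 5 to 16 (2.95% to 5.84%). The count free of overlap (58) was 28 with quantile normalization, and the share of all genes with that scaling is not given here. The count free of overlap and that of higher means were added after the data were seen. With replicate number as a block the unadjusted count was 5 (3.50% of all genes). Deviations of same-numbered animals from their group means correlated at -0.048, -0.16 and -0.015 over all genes. Those of differently numbered animals correlated at -0.066 to 0.12. With 3 animals per group these values cannot show whether the numbers pair animals. With quantile normalization 10 genes turned below 0: Rpl9 (-0.065), Rpl18 (-0.043), Rpl5 (-0.031), Rps24 (-0.031), Rpl27 (-0.020), Rpl30 (-0.016), Rpl34 (-0.013), Rps27a (-0.011), Rps15a (-0.011) and Rpl7 (-0.0052). Signs were also reversed for Rpl19 (0.18), Rps27 (0.030) and Eif3a (-0.068) as the mean over probes, and for Rps27 with median centring (0.0071) and normexp (0.043). As each array was left out, Rpl19 ranged from -0.24 to 0.027, Rps24 from -0.097 to 0.17 and Rps27 from -0.10 to 0.10, with the brightest probe chosen anew each time; with the same probe kept, an alternative added after the data were seen, Rps27 ranged from -0.10 to 0.013, and Rpl19, with the same values as before, was 0.018 without corn oil replicate 3 and 0.014 without TCEP replicate 2. The count of higher means was 69 to 71 either way. The causes were not tested. All 72 genes were well above background, so dim signal limited none of them.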
